A study of Oryza sativa with 16 samples.

Results

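The study set a scented rice variety against an unscented one, and scented lines of their cross against unscented lines, and the question here is which leaf transcripts separated the varieties but not the lines, and the reverse. The measure was an interaction: the log2 difference between the 2 parents (Pusa 1121 minus Pusa 1342, the parental difference) minus the log2 difference between the 2 bulks (aromatic minus non-aromatic, the bulk difference). All 16 of the 16 arrays of the series enter it, so it draws on the whole series, and it was computed for 57194 probe sets that are not controls. Each array was an Affymetrix rice array hybridised with biotin-labelled RNA of fresh leaves of Oryza sativa, taken about 25 days after transplanting from untreated plants grown in the field.

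The 4 groups had 4 arrays each. Pusa 1121 is the aromatic parent and Pusa 1342 the non-aromatic parent, and each is a single fixed genotype. The aromatic bulk pooled 6 recombinant inbred lines scored as strongly scented, and the non-aromatic bulk pooled 6 lines scored as unscented; every array of a bulk therefore averages over 6 genotypes, and the spread among lines was not measured. Values given below for aromatic and non-aromatic lines are those of the bulks. Replicates are labelled biological without saying whether each had plants or pools of its own, so a p-value here measures only how these arrays scatter, which may be technical. The median intensity was 64.2 on all 16 arrays, and arrays of 1 group correlated with a mean r across probe sets of 0.917 to 0.930. In whole leaf RNA, fewer cells of a type and less RNA per cell cannot be told apart.

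Recombinant inbred lines are made by selfing the offspring of a cross until they are fixed, and each carries a mosaic of both parental genomes. Varieties can therefore differ at any locus where their alleles differ, whereas bulks chosen on 1 trait are expected to differ mainly at loci tied to that trait and, since few lines are pooled, at loci where the lines drawn happen to be unevenly divided. Grain and leaf scent of Basmati-type rice is known to come mainly from 2-acetyl-1-pyrroline, which accumulates where the enzyme encoded by BADH2 is lost; its precursor derives from proline and polyamines.

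BADH2 (LOC4345606, chromosome 8), the betaine aldehyde dehydrogenase gene of fragrance, was lower on the aromatic side of both pairs, and by more between the varieties. Its intensity was 322, 288, 375 and 410.0 on the 4 Pusa 1121 arrays, against 2236, 2234, 2218 and 2243 on those of Pusa 1342. In the lines it was 417, 351, 326 and 386 in aromatic lines, against 809, 683, 687 and 751 in non-aromatic lines. The groups of neither pair overlapped, and the 2 aromatic groups lay close together, while the non-aromatic bulk lay well below Pusa 1342. The parental difference was -2.69 and the bulk difference -0.99 on the log2 scale, an interaction of -1.70 (SE 0.163, limma adjusted p = 4.24e-06). Its paralog BADH1 (LOC4336081, chromosome 4) separated only the varieties by this measure, with 896 ± 167 in Pusa 1121 against 2021 ± 102 in Pusa 1342, and 1005 ± 43.4 in aromatic lines against 1144 ± 74.9 in non-aromatic lines (SD, n = 4 each). Its interaction was -1.01 (adjusted p = 0.000497), and the bulk difference did not pass (-0.19, adjusted p = 0.336).

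Over all probe sets, the parental and the bulk difference differed for 11081 of 57194 (19.4%), with an interaction above 0 for 5259 and below 0 for 5822 (9.2% and 10.2%), at a limma adjusted p under 0.05, which is the threshold meant by "called" throughout. A positive interaction means that Pusa 1121 exceeded Pusa 1342 by more than the aromatic bulk exceeded the non-aromatic bulk. The brightest probe set stood for each of 17905 genes, of which 6041 (33.7%) were called, 2937 above 0 (16.4%) and 3104 below 0 (17.3%), and for 783 the interaction was at least 4-fold. The parental difference was called for 8097 genes (45.2%, with 22.4% higher and 22.8% lower in Pusa 1121) and the bulk difference for 5869 (32.8%, with 16.5% higher and 16.3% lower in aromatic lines).

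The called genes were sorted by what each pair did. In 2487 genes (13.9% of all genes) the varieties differed while the bulk difference was not called and under 0.5 in size on the log2 scale; these are the genes said below to separate the varieties alone. In 1046 genes (5.84%) the lines differed while the parental difference was not called and under 0.5, and these are said to separate the lines alone. Both pairs were called in opposite directions in 900 genes (5.03%), a count that ran to 1470 when only the brighter probe sets were tested and to 561 when the interaction also had to reach 1 log2. Both were called in the same direction with the larger difference between the varieties in 939 genes (5.24%) and with the larger one between the lines in 191 (1.07%), and 478 (2.67%) met none of these conditions. A difference that was not called is not shown to be absent.

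**Figure D1:**
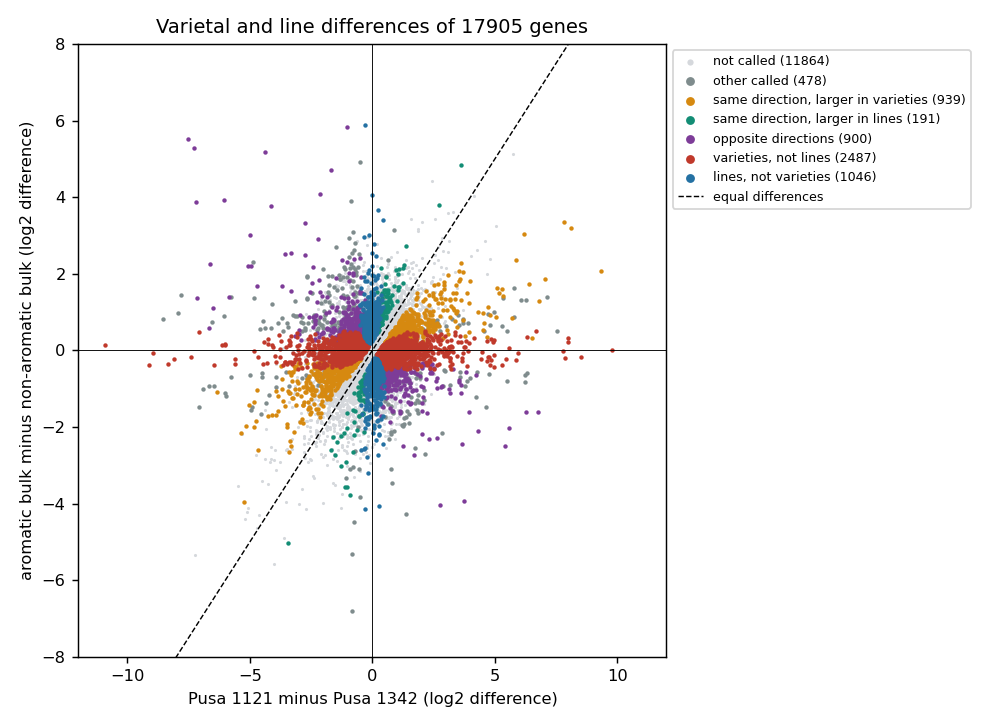
Log2 difference between Pusa 1121 and Pusa 1342 (horizontal axis) against that between the aromatic and the non-aromatic bulk (vertical axis) for 17905 genes, 1 point each, coloured by the kind of difference; the dashed line marks equal differences. The 2487 genes that separated the varieties but not the lines lie along the horizontal axis and the 1046 of the reverse kind along the vertical axis.

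Among the genes that separated the varieties but not the lines, EIL1B (LOC4332697, chromosome 3), a transcription factor of the EIN3-like family that acts in ethylene signalling, had the largest positive interaction among genes with a published name and a mean of at least 200 in a group. Its intensity was 12820, 12748, 12856 and 12365 in Pusa 1121, against 55.8, 61.2, 45.0 and 38.6 in Pusa 1342. Aromatic lines had 6333, 7237, 5995 and 6629.8, against 5590.2, 4715, 5484 and 5207 in non-aromatic lines. Both bulks thus lay between the parents, near the middle of the linear range, and the interaction was 7.66 (SE 0.179, adjusted p = 1.75e-11). The arrays of the 2 bulks did not overlap, but their difference of 0.32 was not called (limma adjusted p = 0.107). MADS56 (LOC4349237, chromosome 10), a MADS-box gene of the SOC1 type that takes part in the control of flowering, was the reverse case, with 23.6, 37.3, 26.3 and 39.2 in Pusa 1121 against 5172, 5549, 5049 and 5721 in Pusa 1342. Its bulks had 1465 ± 85.6 (aromatic) and 1662 ± 56.7 (non-aromatic), which did not overlap either, though their difference of -0.18 was not called (limma adjusted p = 0.443). They again lay between the parents, and the interaction of MADS56 was -7.21 (adjusted p = 6.28e-11).

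This middle position was common but not general. Of the 2487 genes, 251 had at least a 4-fold parental difference, and in 195 of these (77.7%) both bulk means lay between the 2 parental means. Counted from the lower to the higher parent on the linear scale, the mean of the bulks stood at a median of 53.1% of the way, with quartiles at 23.1% and 80.8%. Genes near 1 parent included LOC4328727 on chromosome 2, with 28989 ± 888 in Pusa 1121 against 43.2 ± 37.2 in Pusa 1342, while the aromatic bulk had 23268 ± 565 and the non-aromatic bulk 22968 ± 224; the interactions of its other 3 probe sets were called with the same sign, but 2 of the 3 also had a called bulk difference, of 0.53 and 0.68. LOC4327118 on chromosome 1 was nearly dark in Pusa 1121 alone, at 5.64, 2.38, 2.54 and 6.64 against 9535, 10261, 9763 and 8957 in Pusa 1342, 7982 ± 127 in the aromatic bulk and 7273 ± 193 in the non-aromatic bulk. LOC4335579 on chromosome 4 had 1559, 1612, 1511 and 1592 in Pusa 1121, against 16.0, 2.64, 1.41 and 1.28 in Pusa 1342, which alone was nearly dark, with 2338 ± 56.6 in aromatic lines and 2645 ± 157 in non-aromatic lines. With 1 side this low, the pseudocount sets the log2 size, and no fold was measured; the same limit holds for any gene below with a group mean under the array median of 64.2. The 3 other probe sets of LOC4333210, which had an interaction of -8.89 through its brightest one, were called the opposite way in 1 case and not called in 2. A dim second probe set of LOC4335579 was not called, with an interaction of 0.04 and a parental difference of 0.59.

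Several genes of metabolism and transport rose in Pusa 1121 with little separation of the bulks. AT5, an acyltransferase of the BAHD family that acts on cell wall phenolics, had 9653 ± 365 in Pusa 1121 against 724 ± 69.7 in Pusa 1342, and bulks at 7424 ± 342 (aromatic) and 6916 ± 178 (non-aromatic), with an interaction of 3.64 (adjusted p = 1.71e-10). The lipoxygenase gene LOX9 had 3504 ± 202 against 654 ± 21.7 in the varieties and 2511 ± 79.3 against 2589 ± 96.9 in the lines (interaction 2.46), although 1 of its 2 dimmer probe sets did not pass. APX5, an ascorbate peroxidase that removes hydrogen peroxide, had an interaction of 3.19 (adjusted p = 1.79e-08), and CAD2, a cinnamyl alcohol dehydrogenase of lignin synthesis, one of 1.45. For CAD2 the bulks, at 14257 ± 823 (aromatic) and 15322 ± 544 (non-aromatic), lay at the level of Pusa 1121 (14599 ± 796) and far above Pusa 1342 (5746 ± 177). CYP71P1, the P450 that makes serotonin from tryptamine, had 4999 ± 302 in Pusa 1121 against 1664 ± 53.2 in Pusa 1342, with bulks at 4492 ± 326 (aromatic) and 4302 ± 186 (non-aromatic), and an interaction of 1.52 that turned to -0.04 and was not called when all its probe sets were averaged. The potassium transporter gene HAK13 had 609, 741, 650.1 and 855 in Pusa 1121 against 19.6, 156, 29.1 and 112 in Pusa 1342, and both bulks lay between, at 278 ± 66.8 (aromatic) and 238 ± 53.2 (non-aromatic). AGO3, an argonaute of small RNA pathways, and BGLU13, a beta-glucosidase, had interactions of 2.61 and 3.38; a dim second probe set of BGLU13 did not pass.

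The genes of this kind that were lower in Pusa 1121 had varied functions. MCM2, a subunit of the replicative helicase, had 33.9, 4.03, 29.1 and 34.9 in Pusa 1121, against 292, 342, 532 and 313 in Pusa 1342. Pusa 1342 stood alone, since aromatic lines had 27.2 ± 18.4 and non-aromatic lines 21.7 ± 5.70. Its interaction was -4.25 (SE 0.83, adjusted p = 0.00207). The histone gene H2B.10 had 22.1 ± 17.3 in Pusa 1121 against 399 ± 39.3 in Pusa 1342, with 218 ± 42.1 and 279.5 ± 52.4 in the aromatic and the non-aromatic bulk (interaction -4.13). PSY2, a phytoene synthase at the entry to carotenoid synthesis, had 1895, 2044, 1869.9 and 2045 in Pusa 1121, against 10181, 11695, 10083 and 11532 in Pusa 1342. The aromatic bulk, at 8841 ± 653, and the non-aromatic bulk, at 8591 ± 77.6, lay nearer to Pusa 1342, and the interaction was -2.51 (adjusted p = 4.21e-09). FTIP1, which helps to move a florigen protein out of companion cells, had 72.7 ± 43.6 in Pusa 1121 against 340.1 ± 65.5 in Pusa 1342, with both bulks between, at 162 ± 23.1 (aromatic) and 133 ± 37.0 (non-aromatic), and an interaction of -2.80 (adjusted p = 0.00688). RLA1, a transcription factor of leaf angle and brassinosteroid response, had 147 ± 67.9 in Pusa 1121 against 788 ± 44.6 in Pusa 1342, and bulks midway, at 403 ± 32.4 (aromatic) and 391 ± 82.5 (non-aromatic), with an interaction of -2.64 (adjusted p = 0.000796). Lsi6, a silicon channel of leaves, had 2008 ± 123 in Pusa 1121 against 8136 ± 287 in Pusa 1342, and 3687 ± 172 in aromatic lines against 4277 ± 339 in non-aromatic lines (interaction -1.81). The 2 bulks did not overlap for Lsi6, as for EIL1B and MADS56, but their difference missed the threshold (adjusted p = 0.0861). Among other genes of this kind, the bulks did not overlap for BGLU13, LOC4327118, LOC4335579, RBBI3.3, HEMB and CKX11, whose bulk differences were not called.

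Bulks could also lie outside or at the edge of the parental range. RBBI3.3, a Bowman-Birk inhibitor of proteases, had 103 ± 14.8 in Pusa 1121 against 575 ± 22.5 in Pusa 1342, yet 1343 ± 69.0 in aromatic and 1137 ± 107 in non-aromatic lines, both above either parent. SAUR39, an auxin-responsive gene, had 1153 ± 105 in Pusa 1121 and 351 ± 6.19 in Pusa 1342, with 372 ± 24.9 in aromatic and 335 ± 60.8 in non-aromatic lines, so that Pusa 1121 stood apart from the other groups.

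**Figure D2:**
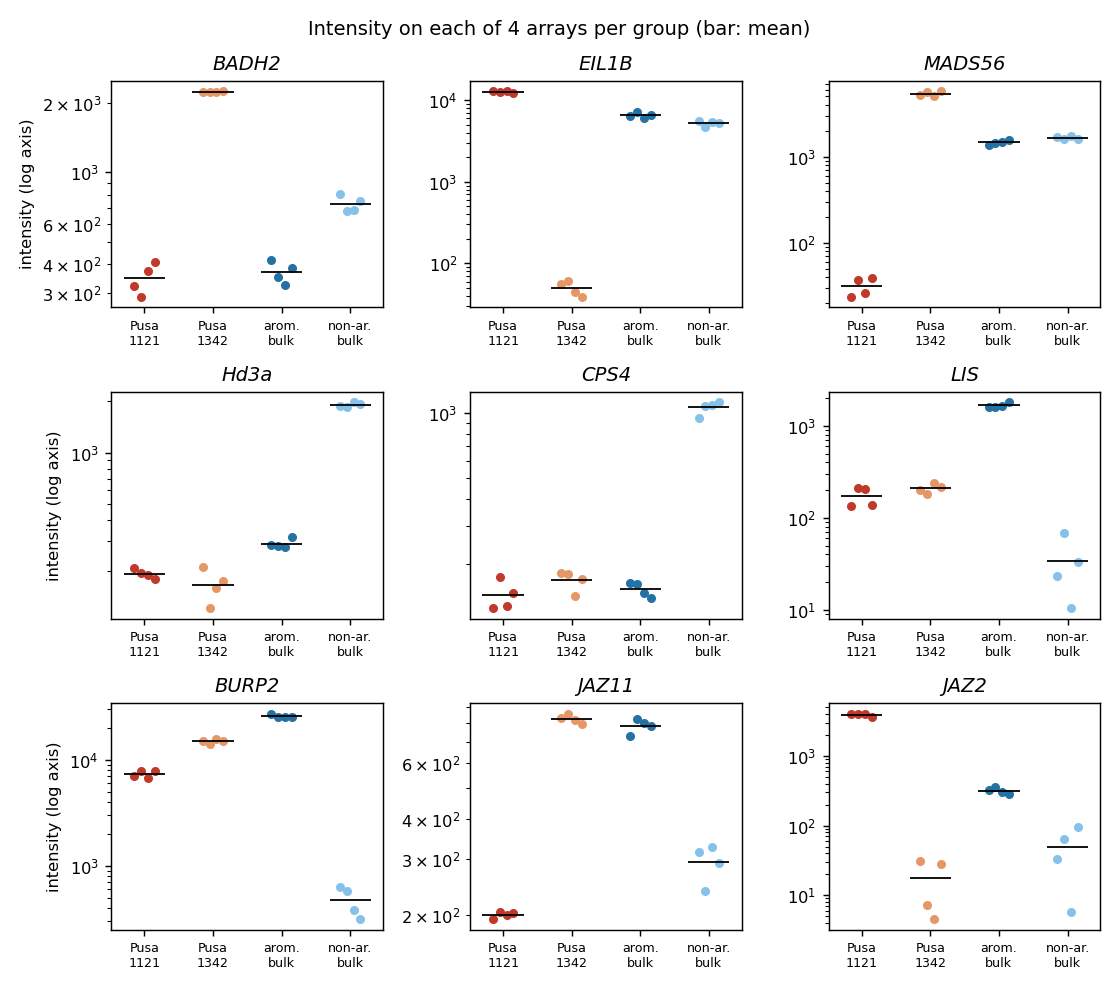
Intensity (log axis) of 9 genes on each of the 4 arrays of Pusa 1121, Pusa 1342, the aromatic bulk and the non-aromatic bulk; points are arrays and bars are group means. EIL1B and MADS56 separate the parents with both bulks between them, and Hd3a, CPS4 and LIS separate the bulks with the parents close together.

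The genes that separated the lines but not the varieties included regulators of flowering. Hd3a (LOC4340185, chromosome 6) encodes a florigen, the mobile protein that starts flowering at the shoot tip. Its intensity was 208, 197, 191 and 179 in Pusa 1121, against 212, 121, 159 and 175 in Pusa 1342, and these overlapped. In the lines it was 286, 280.1, 276 and 317 in aromatic lines, against 1884, 1863, 1972 and 1935 in non-aromatic lines. The non-aromatic bulk thus stood above every other group, and the interaction was 2.96 (SE 0.189, adjusted p = 9.42e-08). MADS50 (LOC4331445, chromosome 3), a MADS-box activator of flowering, went the other way, with 1794, 1746, 1777 and 1857 in aromatic lines against 403, 428, 409 and 428 in non-aromatic lines. Its parents had 1534 ± 35.6 (Pusa 1121) and 1698 ± 74.4 (Pusa 1342), and its interaction was -2.25 (adjusted p = 1.36e-09). The parental arrays of MADS50 did not overlap either, but the parental difference of -0.15 missed the threshold (adjusted p = 0.123).

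MADS14 (LOC4334140, chromosome 3), a meristem identity gene that acts after the florigen, differed in both pairs, and by more between the lines. It had 354, 399.8, 359.8 and 387 in Pusa 1121, against 4206, 4234, 4003 and 4057 in Pusa 1342, and 252 ± 37.1 in aromatic lines against 8141 ± 484 in non-aromatic lines (interaction 1.56, adjusted p = 3.32e-06), with the 3 other probe sets called the same way. Of 26 clock and flowering genes measured, 9 had an interaction above 0, 8 had one below 0 and 9 were not called (65.4% called, against 33.7% of all genes), with a median of -0.03 against -0.01 over all genes. They split into 5 that separated the lines but not the varieties and only 1, MADS56, of the reverse kind, where all 17905 genes gave 1046 and 2487. CCA1 (LOC4344703, chromosome 8), a core component of the circadian clock that peaks around dawn, had 794, 884, 908 and 969 in Pusa 1121, against 12579, 10575, 12856 and 11665 in Pusa 1342. Both bulks lay near Pusa 1342, at 8677 ± 151 (aromatic) and 11442 ± 282 (non-aromatic), giving an interaction of -3.34 (adjusted p = 4.03e-10); a dim second probe set did not pass. For the clock gene PRR37, called with the larger difference between the lines (0.90 against 0.24 between the varieties), a second probe set was called the opposite way, and the interaction of -0.66 turned to 0.13 (adjusted p = 0.274) with the probe sets averaged.

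Markers of flowers and the shoot meristem were measured beside these genes. Of 37 such markers 2 had an interaction above 0, 7 had one below 0 and 28 were not called (24.3% called, against 33.7% of all genes). Their summed intensity was 23004 to 24380 in Pusa 1121 and 26424 to 27443 in Pusa 1342, and 22333 to 23525 in the aromatic bulk and 18004 to 18967 in the non-aromatic bulk, where Hd3a and MADS14 were highest. Between 23 and 26 of the 37 had a group mean below 200 in each group, so the sums rest on the brighter members. SPL15, 1 of these, had 4399 ± 199 in aromatic lines against 2303 ± 62.8 in non-aromatic lines. MADS16, also listed, went the other way, at 731 ± 74.8 against 1193 ± 139. Of the 37, limma called 8 higher and 2 lower in aromatic lines (27.0% called, against 32.8% of all genes, 16.5% higher and 16.3% lower). The sums therefore do not stand for floral transcripts as a whole. The part of these markers in the flowering results was not tested. MADS5, a SEPALLATA-type gene of floral organs on that list, had 435 ± 34.7 in Pusa 1121 against 31.9 ± 14.5 in Pusa 1342, and 165 ± 28.6 in aromatic lines against 61.1 ± 24.2 in non-aromatic lines (interaction 2.34, adjusted p = 0.00316).

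Among diterpenoid genes, CPS4 and CYP99A2 separated the lines alone. CPS4 (LOC4335090, chromosome 4), the diterpene cyclase at the start of momilactone synthesis, a class of rice phytoalexins, had 125, 175, 128 and 147 in Pusa 1121 and 181, 179.5, 142 and 171 in Pusa 1342. It had 164, 161, 147 and 139.5 in aromatic lines, against 952, 1079.9, 1091 and 1118 in non-aromatic lines. The non-aromatic bulk again stood apart from the other 3 groups, with an interaction of 2.55 (adjusted p = 1.34e-07). CYP99A3 and CYP99A2, cytochrome P450 genes of the same pathway, lie 1 and 8 places from CPS4 in the gene order. CYP99A2 had 545 ± 96.2 in Pusa 1121 and 481 ± 37.6 in Pusa 1342, and 338 ± 78.8 in aromatic lines against 1049.8 ± 32.7 in non-aromatic lines (interaction 1.83, adjusted p = 7.26e-05). CYP99A3 was called in both pairs, with a parental difference of -0.53 and a bulk difference of -1.72 (interaction 1.19). These 2 genes are paralogs, and the array may not tell them apart fully.

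Outside that cluster, CPS2 on chromosome 2 and CYP701A8 on chromosome 6, which act in the synthesis of other labdane-type phytoalexins, were likewise highest in the non-aromatic bulk. CPS2 had 405 ± 58.7 in Pusa 1121 against 1153 ± 167 in Pusa 1342, and 338 ± 41.4 in aromatic lines against 2266 ± 320.2 in non-aromatic lines (interaction 1.23, adjusted p = 0.000457). The interaction of CYP701A8 was 1.24 (adjusted p = 4.96e-06). The volatile-forming terpene synthase gene LIS (LOC4328124, chromosome 2), which encodes a linalool synthase, went the other way. It had 134, 213, 207 and 139.6 in Pusa 1121 and 203, 180.4, 238 and 219 in Pusa 1342, groups that overlapped, while aromatic lines had 1619, 1607, 1644 and 1798, against 23.1, 68.8, 10.4 and 32.9 in non-aromatic lines. The aromatic bulk was above and the non-aromatic bulk below both parents, and the interaction was -6.18 (SE 0.559, adjusted p = 2.61e-06). Over the whole terpene and carotenoid list of 31 genes, 9 interactions were above 0, 7 below 0 and 15 not called (51.6% called, against 33.7% of all genes). In it 5 genes separated the lines alone (16.1%, against 5.84% of all genes) and 4 the varieties alone (12.9%, against 13.9%).

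Position relative to the parents differed among the 1046 genes of this kind. In 633 the non-aromatic bulk was farther from the mean of the parents on the log2 scale, and in 413 the aromatic bulk was. The non-aromatic bulk was also the farther one more often in every other kind of gene. It was so in 1301 against 1186 of the genes separating the varieties alone, and in 6290 against 5574 of the genes not called. Of 27 with at least a 4-fold bulk difference, 18 had both parental means between the bulk means, as LIS did. Among defence genes the chitinase gene Cht-1 had 349 ± 19.9 in Pusa 1121 and 402 ± 55.6 in Pusa 1342, and 292 ± 27.0 in aromatic lines against 1114 ± 127 in non-aromatic lines (interaction 1.73, adjusted p = 3.85e-06). CML31, a calmodulin-like calcium sensor, gave 2.05 (adjusted p = 5.39e-06), and GER6, a germin-like protein gene, 2.25 (adjusted p = 0.00119), both highest in the non-aromatic bulk. IAA13, a repressor of auxin response, had 4281 ± 184 in Pusa 1121 and 3768 ± 169 in Pusa 1342, and both bulks lay below the parents, at 1536 ± 80.0 (aromatic) and 2610.1 ± 90.3 (non-aromatic). The parental arrays of IAA13 did not overlap, but the parental difference of 0.18 missed the threshold (limma adjusted p = 0.0747). Highest in the aromatic bulk were CYP85A1, an oxidase of brassinosteroid synthesis (624 ± 52.8 against 273 ± 32.8 in the non-aromatic bulk, interaction -1.36), and ILL2, a member of the hydrolases that release auxin from amino acid conjugates (391 ± 37.1 against 146 ± 59.0, interaction -1.82). For ILL2 the parental arrays did not overlap either, though the parental difference of -0.34 was not called (limma adjusted p = 0.257). The beta-glucosidase gene BGLU26 had 317 ± 35.6 in Pusa 1121 and 358 ± 54.0 in Pusa 1342, and 367 ± 86.7 in aromatic lines against 88.2 ± 10.1 in non-aromatic lines, the lowest group (interaction -2.18). LOC4346642 on chromosome 9, called in both pairs and by more between the lines, had 910.4 ± 52.2 in Pusa 1121 against 711 ± 67.3 in Pusa 1342, and 3778 ± 131 in aromatic lines against 845 ± 77.7 in non-aromatic lines. LOC4337003, a gene with no published name on chromosome 4, was at 388, 302, 365 and 301 in the aromatic bulk, while no array of Pusa 1121, Pusa 1342 or the non-aromatic bulk exceeded 73.3.

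In genes called in opposite directions, the aromatic member was higher in 1 pair and lower in the other. BURP2 (LOC4338119, chromosome 5), a member of the plant-specific BURP domain family, had 7049.9, 7861, 6786 and 7795 in Pusa 1121, against 14909, 14120, 15743 and 15218 in Pusa 1342. In the lines it had 27340, 25536, 25168 and 25168 in aromatic lines, against 627, 581, 379 and 312 in non-aromatic lines. The aromatic bulk was the highest and the non-aromatic bulk by far the lowest of the groups, with an interaction of -6.85 (SE 0.253, adjusted p = 7.45e-10), and a second probe set was called the same way in all 3 contrasts. LOX8 (LOC4345993, chromosome 8), a lipoxygenase gene next to LOX9 in the gene order, had 4117, 4366, 4361 and 4096 in Pusa 1121, against 281, 305, 291 and 319 in Pusa 1342. Its bulks had 1851 ± 111 (aromatic) and 2714 ± 142 (non-aromatic), a parental difference of 3.82 against a bulk difference of -0.55 (interaction 4.37, adjusted p = 2.2e-11). GRXS1, a glutaredoxin, had 2154 ± 129.8 in Pusa 1121 against 177 ± 32.4 in Pusa 1342, but 618 ± 35.7 in aromatic lines against 1159 ± 53.2 in non-aromatic lines (interaction 4.53). Whether the probe sets tell neighbouring family members such as LOX8 and LOX9 apart was not tested.

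Higher in Pusa 1121 but lower in the aromatic bulk were also FTSH6, a chloroplast protease gene (interaction 4.28, with that of its second probe set called with the same sign), and salT, a salt-induced lectin gene. In the second probe set of FTSH6 the bulk difference of -0.73 was not called. For salT the parents had 1070.3 ± 49.4 (Pusa 1121) and 255 ± 21.5 (Pusa 1342), and the bulks 1227 ± 86.4 (aromatic) and 2828 ± 174 (non-aromatic), an interaction of 3.27 (adjusted p = 7.08e-10). LOGL9, of the family that activates cytokinins, had 2.45 (adjusted p = 2.84e-08). PHT1-1, a phosphate transporter gene, had 3517 ± 95.1 in Pusa 1121 against 1644 ± 71.7 in Pusa 1342, and 1792 ± 69.2 in aromatic lines against 3229 ± 103 in non-aromatic lines (interaction 1.95); a second, dimmer probe set had a called parental difference of the opposite sign (-2.11, adjusted p = 0.00206) and an interaction of -1.78 that did not pass, and with both averaged the call was lost. Transcription factor genes of the same kind were WRKY51, with 2.22 (adjusted p = 4.96e-07), and the heat shock factor gene HSF10, with 1.80 (adjusted p = 1.07e-07). Lower in Pusa 1121 and higher in the aromatic bulk were OsC3H2, a zinc finger gene (-3.52), OsPP2C16, a protein phosphatase gene, and LOC4334900 on chromosome 4. In a dimmer second probe set of OsC3H2 the interaction was called with the same sign, but the bulk difference of 1.25 was not called. OsPP2C16 had 44.4, 5.13, 52.7 and 52.1 in Pusa 1121 against 206, 234, 164 and 213 in Pusa 1342, and 82.1, 100.3, 64.2 and 76.2 in aromatic lines against 4.29, 10.9, 1.34 and 27.5 in non-aromatic lines, so the size of its interaction (-6.10) depends on the pseudocount. EXP1, an expansin gene brightest in the non-aromatic bulk, had the largest positive interaction of this kind among genes with a published name, 4.93, with a mean of 18.8 ± 18.5 in Pusa 1342 under the same limit. LOC4334900 had 55.7, 7.29, 36.4 and 40.0 in Pusa 1121 against 5212, 6004, 5381 and 5153 in Pusa 1342, and 1543, 1801, 1464 and 1759 in aromatic lines against 11.6, 78.8, 84.5 and 17.8 in non-aromatic lines, so that 1 aromatic and 1 non-aromatic group were bright and the other 2 dim.

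Jasmonate signalling was the list with the largest share of members called. JAZ proteins repress the response to jasmonate, a hormone of wounding and defence, and are destroyed when the receptor COI1 binds the hormone; many JAZ genes are themselves induced by it. Of 20 measured genes 13 had an interaction below 0, 3 had one above 0 and 4 were not called (80.0% called, against 33.7% of all genes), with a median of -0.68. Between the varieties 12 were lower and 2 higher in Pusa 1121, while between the lines 9 were higher and 2 lower in the aromatic bulk. By kind, 5 were called in opposite directions, 5 separated the varieties alone and 2 the lines alone.

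JAZ11 (LOC4331833, chromosome 3) had 194, 205, 201 and 203 in Pusa 1121, against 834, 858, 822 and 798 in Pusa 1342. In the lines it had 729, 824, 804 and 782 in aromatic lines, against 316, 239, 326 and 292 in non-aromatic lines. The aromatic bulk stood near Pusa 1342 and the non-aromatic bulk nearer to Pusa 1121, opposite to their scent, and the interaction was -3.47 (SE 0.132, adjusted p = 9.45e-10). JAZ10, which lies next to JAZ11, had the same order, with 378 ± 44.0 against 832 ± 59.8 in the varieties and 857 ± 35.0 against 562 ± 33.4 in the lines (interaction -1.75), although a dimmer second probe set did not pass. JAZ8 gave -1.24 (adjusted p = 1.09e-05) and JAMYB, a MYB gene induced by jasmonate, -3.54 (adjusted p = 1.5e-05). JAZ4 separated the varieties alone, at 2791 ± 219.7 in Pusa 1121 against 6826 ± 311 in Pusa 1342, with 5895 ± 171 in aromatic and 5550.3 ± 349 in non-aromatic lines, but a dimmer second probe set did not pass.

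JAZ2 (LOC4342421, chromosome 7) departed from these. It had 4029, 3958, 4073 and 3672 in Pusa 1121, against 31.0, 7.27, 4.48 and 28.2 in Pusa 1342, and 327, 357, 301 and 283 in aromatic lines, against 33.2, 63.3, 5.75 and 96.2 in non-aromatic lines. It was higher on the aromatic side in both pairs, by more between the varieties, and its interaction of 4.91 (SE 1.02, adjusted p = 0.00331) rests on dim values in Pusa 1342 and the non-aromatic bulk. CYP74A1 and the other lipoxygenase and oxylipin genes, which make jasmonate precursors and leaf volatiles, split without a common direction, with 2 interactions above 0, 3 below 0 and 13 not called of 18 (27.8% called, against 33.7% of all genes).

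**Figure D3:**
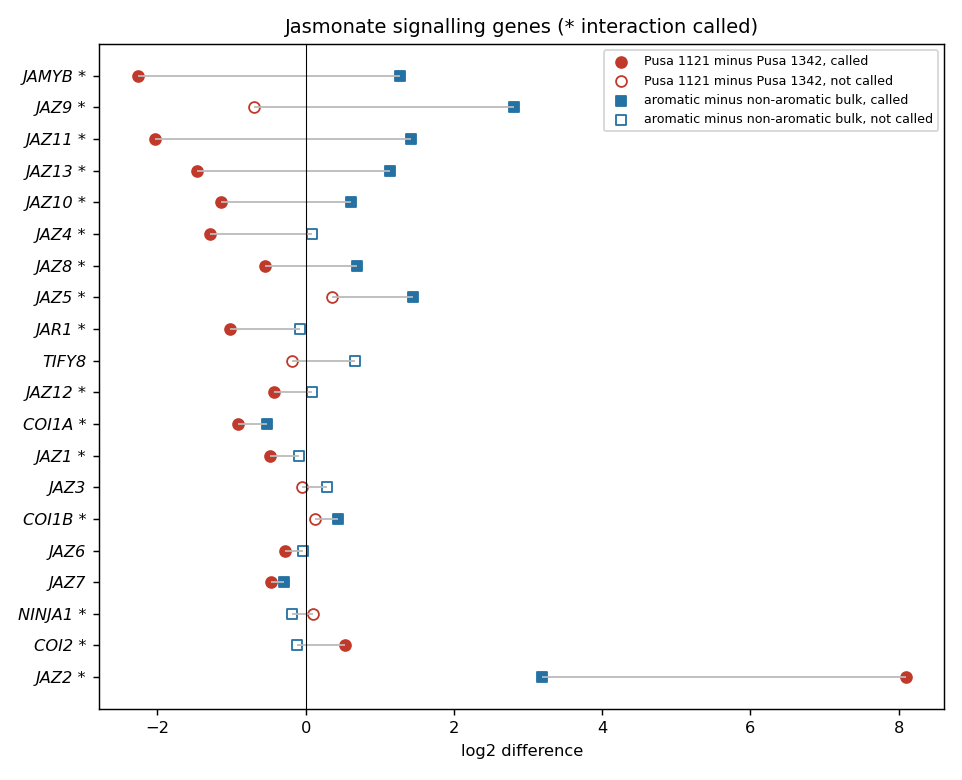
Log2 difference of 20 jasmonate signalling genes between Pusa 1121 and Pusa 1342 (circles) and between the aromatic and the non-aromatic bulk (squares), joined by a line; filled symbols were called and an asterisk marks a called interaction. Of the 16 called interactions 13 are below 0, with the circle left of the square.

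Ribosomal protein genes separated the varieties but not the lines in the largest share of any list. Of 24 measured, 13 were of this kind (54.2%, against 13.9% of all genes), 15 interactions were below 0, 3 above 0 and 6 not called, and the median was -0.34. The differences were small: none of the 15 reached 1 log2. RPL7A-2, of the large subunit, had 7276, 6839, 6915 and 6732 in Pusa 1121, against 10083, 10804, 10181 and 10083 in Pusa 1342. The aromatic bulk, at 9271 ± 286, and the non-aromatic bulk, at 9233 ± 221, lay between them and close together (interaction -0.57, adjusted p = 0.000342). RPS7, of the small subunit, gave -0.48 (adjusted p = 0.00106). The gene listed as rpl5 was an exception that separated the lines alone, at 8115 ± 191 in aromatic lines against 5552 ± 106 in non-aromatic lines, with 8449.8 ± 258 in Pusa 1121 and 8129 ± 130.4 in Pusa 1342 (interaction -0.49). Cyclins and cyclin-dependent kinases, the other growth-related list, had 1 interaction above 0, 4 below 0 and 35 not called (12.5% called, against 33.7% of all genes).

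Genes of fragrance, proline and polyamine synthesis were few. Of 8 measured, 5 interactions were called below 0, none above 0 and 3 were not called (62.5% called, against 33.7% of all genes, of which 17.3% were below 0), with a median of -0.71. P5CS1 (LOC4338979, chromosome 5), the synthase at the first step of proline synthesis from glutamate, had 2427, 2477, 2285 and 2402 in Pusa 1121, against 6609, 6585, 6512 and 6441 in Pusa 1342. Aromatic lines had 5076, 5079, 5063 and 5129, against 3980.3, 4411, 4254 and 4391 in non-aromatic lines. The direction turned between the pairs, with -1.45 between the varieties and 0.26 between the lines (interaction -1.70, adjusted p = 1.39e-08). OAT, ornithine aminotransferase, which joins arginine breakdown to proline, had 1216 ± 48.2 in Pusa 1121 against 2258 ± 202 in Pusa 1342, and bulks at 2293 ± 35.3 (aromatic) and 2393 ± 81.8 (non-aromatic), an interaction of -0.83 (adjusted p = 6.09e-05). Among 8 genes of aldehyde and alcohol metabolism, 4 interactions were above 0, 2 below 0 and 2 not called. Of all genes 33.7% had a called interaction, 16.4% above 0 and 17.3% below 0. AO-2, an aldehyde oxidase, separated the varieties alone, at 3181 ± 251 in Pusa 1121 against 5128 ± 196 in Pusa 1342 (interaction -0.57, adjusted p = 0.00168). AO-1, of the same family, was higher on the aromatic side of both pairs, at 653 ± 78.2 in Pusa 1121 against 109 ± 13.3 in Pusa 1342, and 422 ± 91.7 in aromatic lines against 285 ± 49.4 in non-aromatic lines (interaction 2.02). PDC2, a pyruvate decarboxylase of fermentation, turned direction through its brightest probe set, with 0.43 between the varieties and -0.51 between the lines. In a dimmer second probe set of PDC2 the parental difference was not called (0.06), while the bulk difference was (-0.60).

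Chlorophyll genes were called in 10 of 15 cases (66.7%, against 33.7% of all genes), 2 above 0 and 8 below 0, with a median of -0.33. PORA, the light-dependent reductase that makes chlorophyllide, had 3076 ± 39.8 in Pusa 1121 against 7339.8 ± 417 in Pusa 1342, and 3036 ± 132 in aromatic lines against 2242 ± 114 in non-aromatic lines, opposite directions (interaction -1.69, adjusted p = 4.47e-08). CHLG, chlorophyll synthase, also turned, at -0.26 between the varieties and 0.60 between the lines. HEMB, of the early tetrapyrrole steps, separated the varieties alone (interaction -1.44), with bulks at 6152 ± 346 (aromatic) and 5631 ± 77.3 (non-aromatic) near Pusa 1342. CHL1, a subunit of magnesium chelatase, was higher on the aromatic side in both pairs and by more between the lines, at 4102 ± 82.2 in Pusa 1121 against 3317 ± 209 in Pusa 1342 and 5252 ± 60.2 in aromatic lines against 2435 ± 133 in non-aromatic lines. Of 9 photosynthesis genes 1 interaction was above 0, 2 were below 0 and 6 not called (33.3% called, against 33.7% of all genes). Their summed intensity was 205490 to 211850 in Pusa 1121 and 215500 to 222210 in Pusa 1342. In the bulks the sum was 213180 to 216340 (aromatic) and 224060 to 227620 (non-aromatic), so it was somewhat lower on the aromatic side of both pairs.

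More heat shock genes were lower than higher on the aromatic side of both pairs. Of 48 genes 22 were lower and 10 higher in Pusa 1121 (66.7% called), and 19 were lower and 3 higher in aromatic lines (45.8% called). Among all genes 22.8% were lower and 22.4% higher in Pusa 1121, and 16.3% lower and 16.5% higher in aromatic lines. Of the interactions 15 were below 0, 8 above 0 and 25 not called (47.9% called, against 33.7% of all genes), with a median of -0.27. HSP18.6, a small chaperone, had 206, 201, 194 and 251 in Pusa 1121, against 5493, 6297, 5689.8 and 5678 in Pusa 1342. It had 663, 589.7, 574 and 585 in aromatic lines, against 2037, 2387, 1953 and 2261 in non-aromatic lines. The bulks lay within the parental range, and the interaction was -2.93 (adjusted p = 7.49e-09), with the interactions of both other probe sets called with the same sign. CLPB1, the disaggregase known as Hsp101, gave -1.39 (adjusted p = 1.85e-06), and HSP24.1 -1.09 (adjusted p = 2.04e-05).

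Other genes with a shared direction and a larger difference between the varieties came from several families. CIPK5, a kinase that works with calcium sensors, had 474, 477, 455 and 534 in Pusa 1121, against 7766, 7400.3, 7240.2 and 7485 in Pusa 1342, and 1788 ± 80.7 in aromatic lines against 3741 ± 40.7 in non-aromatic lines (interaction -2.88, adjusted p = 3.77e-10). SWEET2B, a sugar transporter, was likewise lower on the aromatic side of both pairs (interaction -2.71). BC1L9, of the COBRA-like cell wall family, was higher on the aromatic side, with 1596 ± 79.9 in Pusa 1121 against 68.6 ± 16.6 in Pusa 1342, and 1191 ± 23.3 in aromatic lines against 729 ± 57.7 in non-aromatic lines (interaction 3.84). TIP4-1, a vacuolar aquaporin, stood apart in Pusa 1121, at 15649, 15280, 14734 and 14962, against 1864, 1694, 1873 and 1785 in Pusa 1342. Its bulks lay below both parents, at 1210 ± 179 (aromatic) and 892 ± 46.4 (non-aromatic), and its interaction was 2.64 (adjusted p = 1.29e-08).

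**Figure D4:**
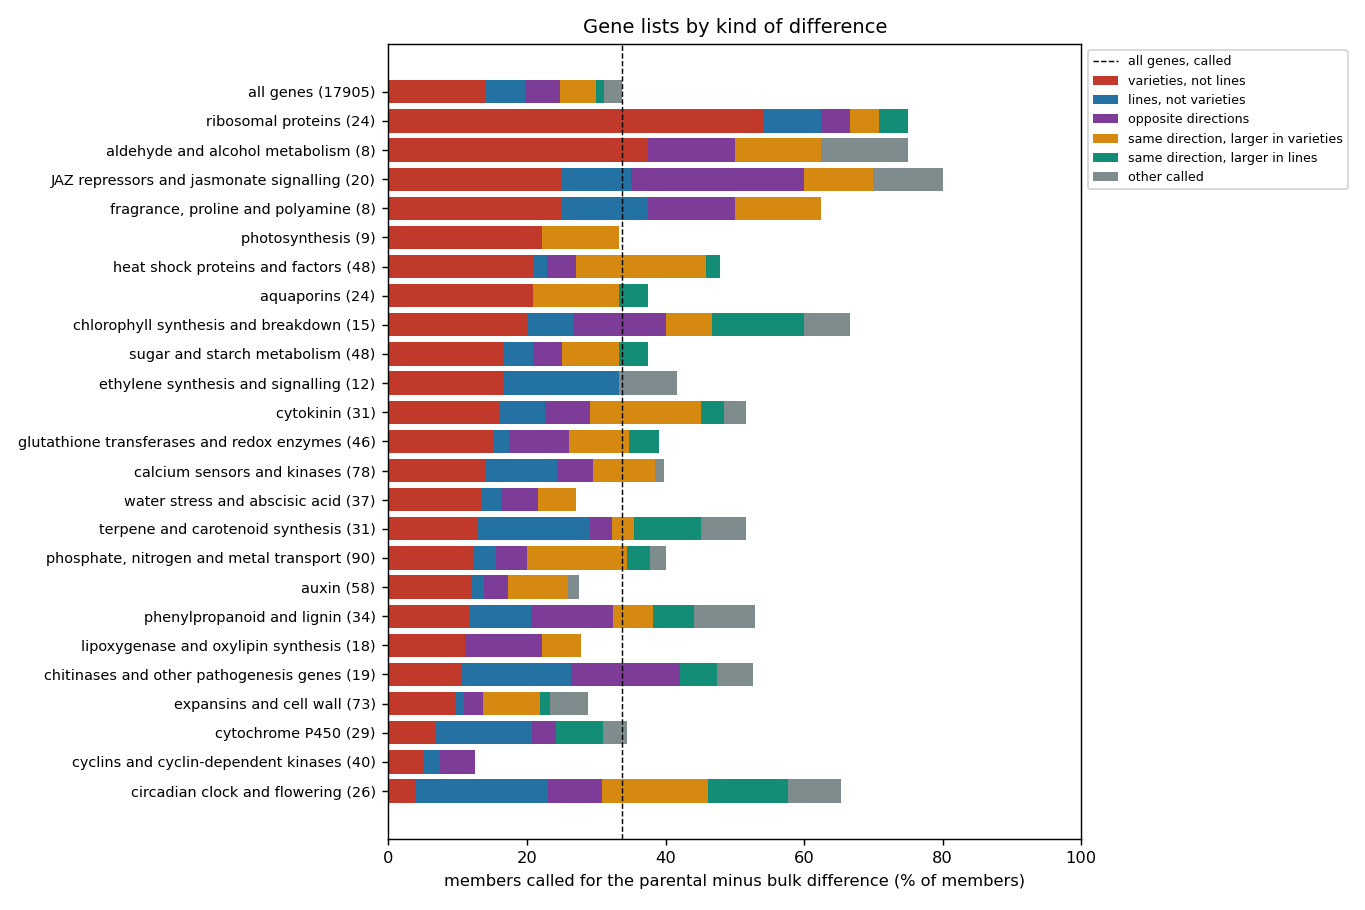
Percent of the members of each gene list (number measured in brackets) called for the parental minus bulk difference, divided by kind; the dashed line is the 33.7% called among all 17905 genes. Ribosomal genes have the largest share that separated the varieties alone, 54.2%, against 3.85% of clock and flowering genes.

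The remaining lists are given by their counts. Above 0, below 0 and not called, the interactions were 24, 12 and 54 for transport of phosphate, nitrogen and metals (40.0% called), 11, 7 and 16 for phenylpropanoid and lignin genes (52.9%), and 7, 3 and 9 for chitinases and other pathogenesis genes (52.6%), against 33.7% of all genes. In the pathogenesis list the chitinase gene Cht2 had 2.82 (adjusted p = 4.48e-10), and NPR4, of the family of salicylic acid receptors, gave 1.70. The interactions of the 2 other probe sets of Cht2 were called with the same sign. In 1 of them, also bright, the parental difference was called the other way, at -0.38 against 1.79, and the bulk difference was -2.13. The interactions above 0, below 0 and not called were 3, 13 and 42 for auxin genes (27.6% called), 4, 17 and 52 for expansins and cell wall enzymes (28.8%), and 6, 12 and 30 for sugar and starch genes (37.5%). ARF9, an auxin response factor, had 1506 ± 17.2 in Pusa 1121 against 3344 ± 81.2 in Pusa 1342, and 2431 ± 89.8 in aromatic lines against 2108 ± 85.3 in non-aromatic lines (interaction -1.36). Counts in the same order were 9, 7 and 15 for cytokinin genes (51.6% called), 14, 17 and 47 for calcium sensors and kinases (39.7%), 8, 10 and 28 for glutathione transferases and redox enzymes (39.1%), 5, 4 and 15 for aquaporins (37.5%) and 4, 6 and 27 for water stress genes (27.0%), against 33.7% of all genes. CKX11, a cytokinin oxidase, separated the varieties alone (interaction -1.85, adjusted p = 1.3e-07); the interaction of a dim second probe set was called with the same sign, but there the parental difference did not pass (-0.53) and the bulk difference did (1.10).

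Markers of other tissues were measured too. None of 9 seed storage genes was called in any of the 3 contrasts by limma (at an unadjusted p under 0.05, 0 for the interaction, 1 for the parental and 2 for the bulk difference), and 7 of the 9 had a mean below 200 in each group. Of 5 root markers 1 interaction was above 0 and none below 0 (20.0% called, against 33.7% of all genes), and 3 or 4 had a mean below 200 in each group. The root sums were carried by NAAT1, an aminotransferase of iron uptake in grasses, with means of 8752 in Pusa 1121 and 5111 in Pusa 1342, and 9803 in aromatic and 8593 in non-aromatic lines; the sums were 8966 to 9140 in Pusa 1121 and 5228 to 5904 in Pusa 1342, and 9929 to 10304 in aromatic and 8500 to 9299 in non-aromatic lines. Of 7 markers of senescing leaves 1 interaction was above 0 and 1 below 0 (28.6% called). Their summed intensity was 10504 to 12011 in Pusa 1121 and 12911 to 14299 in Pusa 1342, and 10914 to 11747 in the aromatic bulk and 14432 to 15363 in the non-aromatic bulk. The sum was lower on the aromatic side of both pairs, a gap carried largely by SGR. Medians of SGR were 1004 in Pusa 1121 against 3976 in Pusa 1342, and 1942 in aromatic against 4457 in non-aromatic lines. By member, 2 of the 7 were called higher and 2 lower in Pusa 1121 (57.1% called, against 45.2% of all genes). In aromatic lines 0 were higher and 2 lower (28.6% called, against 32.8% of all genes). The part of these markers in the chlorophyll results was not tested.

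How much of a varietal difference was found in the lines was measured as the ratio of the bulk to the parental log2 difference, where 1 means equal differences and 0 none. Over 973 genes with a called parental difference of at least 4-fold the median ratio was 0.175, with quartiles at -0.0385 and 0.422. The sign was shared in 688 of them (70.7%), and in 196 the ratio was above 0.5. Since the genes were chosen for their parental difference, that side is the larger by selection; over 303 genes chosen in the same way on the bulk difference, the inverse ratio, of the parental to the bulk difference, had a median of 0.416.

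Chromosomes differed little beside their own spread. Medians ran between 0.0927 on chromosome 8 (79 genes) and 0.268 on chromosome 11 (58 genes), and the quartile ranges of all 12 overlapped. The share of genes with a called interaction lay between 31.9% (chromosome 2) and 35.6% (chromosome 4). On chromosome 8, which carries BADH2, the 11 chosen genes within 200 places of BADH2 in the gene order, BADH2 itself included, had a median of 0.245 and 9 of them shared the sign, against 0.0536 and 38 of 68 for the rest of the chromosome, a difference given as a description. That comparison is with the chromosome of the lowest median. Over all 973 chosen genes the median was 0.175 and 688 (70.7%) shared the sign. BADH2 itself had a ratio of 0.367. The 2 ratios above 0.5 in that stretch belonged to LOC4345562 (0.717) and LOC4345700 (0.847), singled out after their values were seen, whose interactions were not called. LOC4345640, 45 places from BADH2, separated the varieties alone, with 224 ± 33.2 in Pusa 1121 against 984 ± 71.1 in Pusa 1342, and 381 ± 33.7 in aromatic lines against 439 ± 13.6 in non-aromatic lines (interaction -1.93, adjusted p = 7.41e-07). Of BADH2 and the 100 genes within 50 places of it, 42 had a probe set. Of these 17 (40.5%), BADH2 among them, had a called interaction, against 34.6% of the genes of chromosome 8 and 33.7% of all genes. The bulk difference was called for 13 of the 42 (31.0%), again with BADH2 among them, against 32.8% of all genes.

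**Figure D5:**
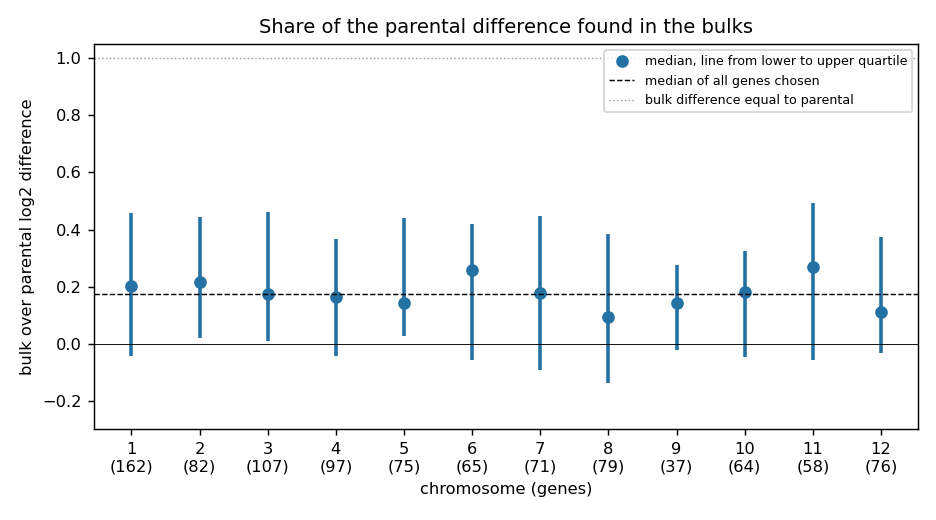
Ratio of the bulk to the parental log2 difference by chromosome for the 973 genes with at least a 4-fold parental difference; points are medians and lines run from the lower to the upper quartile, with the number of genes in brackets. Medians lie between 0.0927 and 0.268 around the overall 0.175 (dashed), far below 1 (dotted).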

How the data were processed

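RNA of rice leaves was measured on 16 Affymetrix arrays, 4 in each of 4 groups assigned from the sample titles. The deposited values are linear intensities, 1 for each of 57381 probe sets, which the authors had made equal in distribution between arrays, as the deposited values show; GCOS 1.2 and RMA stand in the submitters' processing notes without role or settings, and the genome build is not given in the sources used here. Equal distributions hide any shift of all genes at once.

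After 187 control probe sets were left out, log2(intensity + 1) of 57194 was fitted with 4 group means in limma 3.58.1 (R 4.3.3; lmFit and eBayes, 12 residual degrees of freedom). The parental minus bulk difference and both simple differences were tested two-sided by limma, with Benjamini-Hochberg adjustment over all 57194 and a threshold of 0.05. Split at the median level, dimmer probe sets had a median residual SD of 1.09 and brighter ones of 0.196 (log2), so small differences of dim genes were not detectable; the number of arrays limits the precision. Gene names came from the platform annotation, with symbols updated from the RefSeq gene table (assembly ASM3414082v1, used only for names, chromosomes and gene order): 22436 probe sets had 1 gene, 95 had several and 34663 had none listed and were not named. Genes were read through their brightest probe set.

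The contrast, the gene lists and the kinds of difference were chosen with earlier results of these data known. Among genes with a mean of at least 200 in a group, the text names BADH2 and BADH1, those with the largest interaction each way in each kind of difference, with and without a published name, up to 4 of each list with the lowest adjusted p, and strong varietal differences within 50 places of BADH2; it uses a part of these. The 10 alternatives were a pseudocount of 16, the brighter probe sets, linear intensities, repeated quantile normalization, centring on the 75th percentile, a trended robust prior, array weights, the replicate number as a block, the mean of a gene's probe sets and a minimum of 1 log2, and each of the 16 arrays was also left out in turn. Tables were handled in Python 3.11.15 with pandas 2.3.3 and numpy 2.4.6, and figures drawn in matplotlib 3.10.9. The method was tested on simulated data.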

Additional observations from a re-analysis of the deposited data

Results flagged for a closer look

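The parental and bulk differences themselves differed in 6041 of 17905 genes by the limma test of the interaction, which is the result described above.

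In 15 of 388 groups of 4 arrays, each a gene in a group, 1 array stood apart from the other 3 by Dixon's test at its 95% critical value, or 3.87%; chance flags about 1 in 20 groups. They fell 4, 4, 4 and 3 times in Pusa 1121, Pusa 1342, the aromatic and the non-aromatic bulk. In Pusa 1121 BGLU26 had 370.6 on array 4, salT 1144 on array 2, AO-2 3553 on array 3 and LOC4346642 988 on array 1, each above the others. In Pusa 1342 array 1 of LOC4335579 had 16.0, where the others lay between 1.28 and 2.64, all near dark. Array 2 of Pusa 1342 had 242.9 for FTIP1, below the others at 361 to 383, and stood above them for RPL7A-2 (10804) and ARF9 (3465). In the aromatic bulk array 1 was above the others for BURP2 (27340), RPL7A-2 (9697) and PDC2 (3052), and array 2 for FTSH6 (691). In the non-aromatic bulk array 1 was above the others for CYP71P1 (4579) and LOC4345640 (459), and array 3 for CYP99A3 (1489). Leaving out any of these arrays kept the direction and the call of these genes' interactions.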

How the results depend on the processing

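Of 97 named interactions, 82 had the same direction and call under all of the alternatives run for them, as did 2488 of 2519 pairs of a gene and an alternative. With the probe sets of a gene averaged, CYP71P1 turned to -0.0397 (adjusted p = 0.965) and PRR37 to 0.13 (adjusted p = 0.274), and PHT1-1 and RPL10A lost their calls; the second probe set was bright and called the other way for PRR37, and its interaction did not pass for the other 3. ERG3, called at 2.15 with an adjusted p of 0.0493, lost its call with array weights, with the block and without 1 array in 13 of 16 cases. A minimum of 1 log2 removed 12 of the named calls by construction. It also left 5550 probe sets, 837 genes that separated the varieties alone, 223 that separated the lines alone and 561 in opposite directions, with 8 jasmonate, 0 ribosomal, 3 fragrance and 2 chlorophyll genes below 0; limma without the minimum called 13, 15, 5 and 8. Opposite directions numbered 1470 with only the brighter probe sets, 1440 on linear intensities and 1375 with probe sets averaged, against 900; the cause was not tested.

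Without 1 array, the probe sets called ran between 10204 and 10584, the genes separating the varieties alone between 2288 and 2544, those separating the lines alone between 889 and 1025, and those in opposite directions between 768 and 830. In the same fits the median ratio of bulk to parental difference lay between 0.164 and 0.180, jasmonate genes below 0 between 10 and 13, ribosomal between 13 and 15, fragrance between 5 and 6, chlorophyll between 7 and 8, and named genes called between 96 and 97. The ratio has no value under the minimum of 1 log2, which does not enter it.

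No label ties same-numbered arrays together, and 0 of 24 same-numbered pairs had a correlation of deviations over 0.1 (range -0.00709 to 0.0136), so the numbers were not taken to pair the samples. Still, 10 of 16 arrays were closest to their own number, where no relation would give about 4 with 4 numbers, a hint from the data that was not tested. With the replicate number as a block, 10147 probe sets were called, with 2399, 909 and 750 genes separating the varieties alone, the lines alone and in opposite directions, a median ratio of 0.176, and 10 jasmonate, 13 ribosomal, 5 fragrance and 7 chlorophyll genes below 0. The block changed 1 named call, that of ERG3.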

Other observations

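Some smaller lists were not described above. Of 12 ethylene genes 4 interactions were above 0, 1 below 0 and 7 not called (41.7% called, against 33.7% of all genes), with a median of 0.38. Between the lines none of the 12 was higher in the aromatic bulk while 3 were lower (25.0% called, against 32.8% of all genes). Of 7 BURP domain genes 1 interaction was above 0 and 3 below 0 (57.1% called), and BURP2 was the member called in opposite directions. Cytochrome P450 genes gave 7 above 0, 3 below 0 and 19 not called (34.5% called), WRKY genes 2, 0 and 4 (33.3%), gibberellin genes 0, 1 and 6 (14.3%), and resistance genes 0, 1 and 5 (16.7%) in the same order, against 33.7% of all genes. The 3 glyoxylate cycle genes were all called between the varieties (against 45.2% of all genes), 1 higher and 2 lower in Pusa 1121. In aromatic lines 2 of them were lower (66.7% called, against 32.8% of all genes). Among the 3 genes limma called 0 interactions, and 2 interactions had an unadjusted p under 0.05.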
